A study of Mus musculus with 8 samples.

Results

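The genes described here are the adult haemoglobin genes Hba-a1, Hba-a2, Hbb-bs and Hbb-bt and the erythroid haem enzyme gene Alas2, taken from the count table by their symbols. All 5 symbols were found among 32517 gene symbols, and each was read in all 8 libraries. The choice itself was made with earlier results of these data known. Their transcripts were lower in the library of retina-specific Nr3c1 cKO eyes than in the WT library at 4 of 4 times of day, by a log2 fold change of -0.90 for Alas2 to -1.60 for Hba-a1. The WT library of ZT15 had 6.08 to 6.48 times the mean of the other WT libraries for the 4 globins and 3.50 times for Alas2.

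Haemoglobin is a tetramer of alpha and beta chains, each holding a haem group, and it carries oxygen in red cells. Mature red cells of mammals have no nucleus, and the young cells that have just entered the blood, reticulocytes, still hold globin messenger RNA. Alas2 encodes the erythroid form of 5-aminolevulinate synthase, the enzyme of the first step of haem synthesis, whereas Alas1 encodes the form of other cells. The eye is reached by blood through the vessels of the retina and the choroid.

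RNA of whole eyes was sequenced from male mice, 12 weeks old, under a 12 h light and 12 h dark cycle without any drug. WT mice were Cre- and cKO mice Cre+, with the glucocorticoid receptor gene Nr3c1 deleted in the retina. The labels call the deletion retina-specific. The promoter that drives Cre is not given in the sources used here, so whether blood cells, vessels and other eye tissues keep the gene is not known. Each library held RNA of 3 mice mixed in equal amounts, and each genotype had 1 library at ZT3, ZT9, ZT15 and ZT21 (hours after lights-on), so no genotype and time has a repeat and n = 4 libraries per genotype throughout. In such bulk libraries, fewer cells of a type and less RNA per cell cannot be told apart.

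The members form near-identical pairs, and the bases in which the copies of a pair differ are shown because they set how well reads can be assigned. The coding sequences of Hba-a1 and Hba-a2, both 429 bases long in GENCODE M21, differed at 1 base (C381T, counted from the first base of the start codon, Hba-a1 first). Those of Hbb-bs and Hbb-bt, both 444 bases long, also differed at 1 base (C417T, Hbb-bs first). The stretches around these bases, 5′ to 3′ with the differing base in capitals, cover coding bases 356 to 406 of the alpha genes and 392 to 442 of the beta genes.
Hba-a1: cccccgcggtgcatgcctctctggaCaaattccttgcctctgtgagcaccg
Hba-a2: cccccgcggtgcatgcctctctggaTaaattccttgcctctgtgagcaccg
Hbb-bs: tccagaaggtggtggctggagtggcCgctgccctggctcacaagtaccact
Hbb-bt: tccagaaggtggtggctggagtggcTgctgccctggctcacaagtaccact
Of all 50-base stretches of the coding sequence, 87.1% of those of Hba-a1 also occurred in Hba-a2, and 67.5% over the whole transcript. For Hbb-bs and Hbb-bt the shares were 92.9% and 65.8%. How the authors' counting treated reads that match both copies is not given in the sources used here, so the split of reads within a pair is uncertain, and levels are too low if such reads were left out. The alpha and beta coding sequences, at 63.5% identity, shared no 50-base stretch (0.0%), so alpha and beta reads can be told apart.

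The promoters are shown as a description, and their part in the levels of the members was not tested. The sequences are the 250 bases before the start of each gene in RefSeq on GRCm38.p6, read 5′ to 3′ on the strand of the gene, with 4 short motifs on either strand in capitals. The motifs are GATA, the core of the sites of GATA factors, and CCAAT, a box of many promoters. The others are CACCC, the core of sites of Klf factors, and TATAA, the usual letters of a TATA box. They come from chr11:32283422-32283671 on the plus strand for Hba-a1, chr7:103827929-103828178 on the minus strand for Hbb-bs, chr7:103813924-103814173 on the minus strand for Hbb-bt and chrX:150547167-150547416 on the plus strand for Alas2.
Hba-a1: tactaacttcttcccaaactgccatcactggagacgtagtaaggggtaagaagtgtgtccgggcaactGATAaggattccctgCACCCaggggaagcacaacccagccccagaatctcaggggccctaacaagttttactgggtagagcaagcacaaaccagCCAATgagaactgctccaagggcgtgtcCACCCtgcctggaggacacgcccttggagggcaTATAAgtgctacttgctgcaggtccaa
Hbb-bs: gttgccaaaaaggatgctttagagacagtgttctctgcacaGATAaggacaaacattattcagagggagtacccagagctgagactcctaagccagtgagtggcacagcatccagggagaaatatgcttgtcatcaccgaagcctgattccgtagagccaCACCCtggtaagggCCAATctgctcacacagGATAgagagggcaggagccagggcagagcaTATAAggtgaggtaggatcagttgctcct
Hbb-bt: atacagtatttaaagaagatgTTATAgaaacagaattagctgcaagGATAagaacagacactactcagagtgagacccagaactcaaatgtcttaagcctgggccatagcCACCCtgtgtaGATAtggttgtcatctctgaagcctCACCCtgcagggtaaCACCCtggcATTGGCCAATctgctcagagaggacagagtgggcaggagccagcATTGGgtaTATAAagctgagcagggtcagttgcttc
Alas2: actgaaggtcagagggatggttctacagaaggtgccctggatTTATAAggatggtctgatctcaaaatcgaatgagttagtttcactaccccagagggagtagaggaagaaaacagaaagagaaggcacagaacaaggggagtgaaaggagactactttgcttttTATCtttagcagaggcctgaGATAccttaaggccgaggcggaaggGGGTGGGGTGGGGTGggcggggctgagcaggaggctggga
The promoter of Hba-a2, at chr11:32296242-32296491 on the plus strand, was identical to that of Hba-a1 over all 247 bases that the windows share, whereas those of Hbb-bs and Hbb-bt were identical at 73.3% of 243 aligned bases. All 4 motifs occurred in each of the 4 globin promoters, against 2.15% of all 32851 promoters of this length. The motifs were picked for these promoters and the alpha windows are near copies, so this comparison is no test. Alas2 held GATA 2 times, CACCC 3 times and TATAA 2 times, the 2 TATAA matches overlapping, and CCAAT 0 times. Among all promoters, GATA was found in 53.6%, CACCC in 52.0%, CCAAT in 33.8% and TATAA in 22.8%. These matches describe the letters of the windows and show no binding.

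Totals ran from 11748995 to 20309611 counts per library. Nr3c1 ranged from 78.1 to 145 CPM over the WT libraries and from 32.5 to 38.2 CPM over the cKO libraries, where CPM are scaled counts, each divided by its total after TMM adjustment. The tissue field of the labels names the ciliary body, whereas the protocols name whole eyes. The lens gene Cryaa had 23157 to 68923 CPM, and 10 ciliary body markers lay between 0.316 CPM, the lowest library of Car4, and 397 CPM, the highest library of Aqp1. Lens transcripts were thus abundant in every library. Transcripts of the mitochondrial genome took 5.49% of the WT ZT3 library and 6.11% of the cKO ZT3 library, against 1.09 to 1.35% of the other WT libraries and 2.08 to 3.69% of the other cKO libraries. This share was higher in cKO at 4 of 4 times, the opposite direction to the members, and its part in their differences was not tested.

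Per kilobase of transcript, Hba-a2 had the highest level of the members in each library and Alas2 the lowest. Over the 8 libraries the level per kilobase ran from 403 to 6740 CPM for Hba-a2, from 298 to 4926 CPM for Hba-a1, from 303 to 3999 CPM for Hbb-bs, from 51.4 to 696 CPM for Hbb-bt and from 4.25 to 25.04 CPM for Alas2. Library values without regard to length are given next, in the order ZT3, ZT9, ZT15 and ZT21. Hba-a1 had 342, 762, 3443 and 592 CPM in the WT libraries, and 208, 261, 358 and 298 CPM in those of cKO. The WT library was above the cKO library at each time, and the groups overlapped only in that WT ZT3 was below cKO ZT15. Hba-a2 had 393, 811, 3734 and 639 CPM in WT eyes, and in cKO eyes 223, 292, 411 and 325 CPM. Its libraries stood in the same order as those of Hba-a1, with WT ZT15 highest and cKO ZT3 lowest, and the groups overlapped at the same 2 libraries. Behind these levels stood 3268 to 45777 counts of Hba-a1 and 3507 to 49640 counts of Hba-a2 per library.

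Of the beta globins, Hbb-bs had 313, 516, 2511 and 407 CPM in WT libraries against 190, 207, 281 and 257 CPM in cKO libraries. It was the 1 member in which all WT libraries stood above all cKO libraries, against 3.16% of all genes tested. With totals that carry no TMM factor 4 members did so, all but Hbb-bt. That scaling lowered the median log2 fold change of all genes from -0.03 to -0.20. The share of all genes without overlap under it is not given here. Hbb-bt had 51.7, 96.0, 489 and 78.7 CPM in WT libraries against 36.1, 42.4, 58.5 and 48.7 CPM in cKO libraries, so that WT ZT3 again lay below cKO ZT15. The counts behind these levels were 2990 to 33388 for Hbb-bs and 567 to 6504 for Hbb-bt.

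Alas2, which encodes the haem enzyme, had 11.8, 16.6, 51.0 and 15.3 CPM in WT libraries, while the cKO libraries had 8.66, 10.1, 11.2 and 12.9 CPM. WT ZT15 was again the highest library and cKO ZT3 the lowest, and the groups overlapped because WT ZT3 was below cKO ZT21. These levels rest on 136 to 678 counts per library, so counting error is larger here than for the globins.

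**Figure D1:**
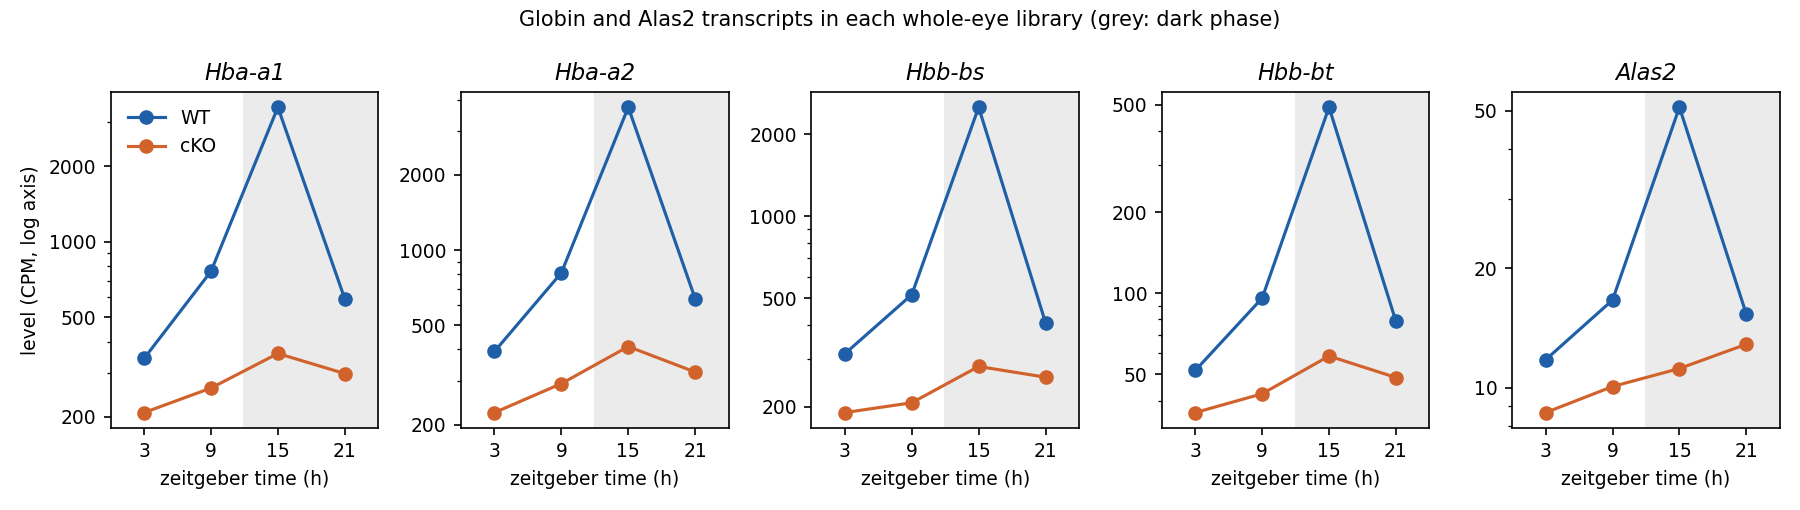
Level of each member in CPM (log axis, a separate scale for each gene) against zeitgeber time in hours, with 1 point per library, WT in blue and cKO in orange and the dark phase in grey. WT ZT15 is the highest library for all 5 genes, for example 3443 CPM of Hba-a1, and the cKO libraries lie below the WT libraries at each time.

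The first comparison asked whether the members differ between WT and cKO eyes over the 4 times. The mean level of Hba-a1 was 1285 ± 1449 CPM in WT and 281 ± 63.2 CPM in cKO (mean ± SD, n = 4), and that of Hba-a2 1394 ± 1569 CPM against 313 ± 77.8 CPM. Hbb-bs averaged 937 ± 1053 CPM against 234 ± 42.3 CPM, and Hbb-bt 179 ± 208 CPM against 46.4 ± 9.55 CPM. Alas2 averaged 23.7 ± 18.3 CPM against 10.7 ± 1.78 CPM. The SD of the WT libraries exceeded the WT mean in the 4 globins, which comes from the ZT15 library: without the ZT15 libraries, the means of Hba-a1 were 566 ± 211 CPM in WT and 256 ± 45.1 CPM in cKO (n = 3), and those of Alas2 14.6 ± 2.53 and 10.5 ± 2.15 CPM.

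With time as a factor in edgeR, the log2 fold change of cKO against WT was -1.60 for Hba-a1 (SE 0.41), with -1.58 for Hba-a2 (SE 0.39). It was -1.43 (SE 0.41) for Hbb-bs, -1.33 (SE 0.41) for Hbb-bt and -0.90 (SE 0.31) for Alas2. The median over all 15373 genes tested was -0.03. In edgeR's quasi-likelihood test 0 of the 5 members passed an adjusted p of 0.05 (Benjamini-Hochberg over all genes tested), and neither did any other gene (0.0%). The adjusted p ran from 0.157 for Hba-a1 and Hba-a2 to 0.183 for Alas2. At an unadjusted p under 0.05 all 5 were lower in cKO, against 11.0% of all genes tested. DESeq2 called Hba-a2 (adjusted p = 0.0398) and Hba-a1 (adjusted p = 0.0469), and it called 1.75% of the genes to which it gave an adjusted p lower in cKO. In DESeq2 the adjusted p was 0.0667 for Alas2, 0.0893 for Hbb-bs and 0.116 for Hbb-bt, so the call depends on the tool and was made for the alpha pair and not for the beta pair.

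The WT ZT15 library carried a large part of these differences. Without it, the log2 fold change in edgeR was -1.07 for Hba-a1 and for Hba-a2, -0.88 for Hbb-bs, -0.78 for Hbb-bt and -0.46 for Alas2. Every member kept its direction and stayed at an unadjusted p under 0.05 in edgeR, against 2211 of 15640 genes tested, in either direction. After adjustment 0 members passed. A two-sided exact permutation test of log2 CPM, which exchanges libraries without regard to time, gave p = 0.0286 for Hbb-bs, the smallest that 4 against 4 libraries allow, and p = 0.0571 for each of the other members. All WT libraries stood above all cKO libraries in 3.16% of the genes tested.

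The size of the difference varied with the time. The cKO level of Hba-a1 was 60.8% of the WT level at ZT3, 34.2% at ZT9, 10.4% at ZT15 and 50.3% at ZT21. For Hbb-bs the shares were 60.8%, 40.1%, 11.2% and 63.1%. For Alas2 they were 73.6%, 60.5%, 21.9% and 83.9%, nearer to the WT level than those of any globin at each time. At ZT15 the WT level was 9.61 times the cKO level for Hba-a1, 9.09 times for Hba-a2, 8.93 times for Hbb-bs, 8.36 times for Hbb-bt and 4.56 times for Alas2. A level lower in cKO than in WT at 4 of 4 times was seen in 15.1% of all genes tested.

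**Figure D2:**
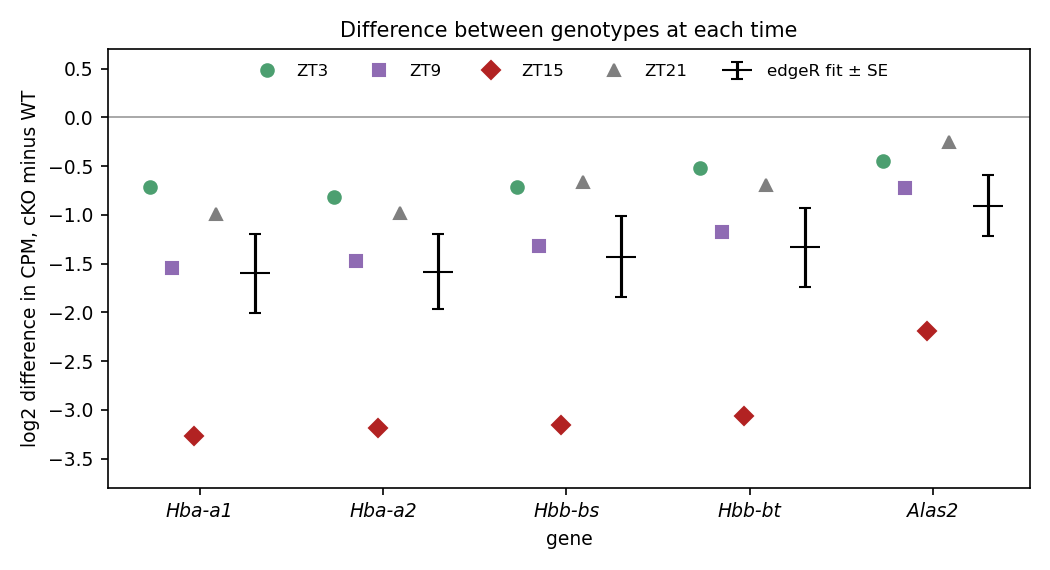
Log2 difference in CPM, cKO minus WT, for each member at each time (coloured symbols, 1 WT and 1 cKO library each) and the edgeR estimate over the 4 times (black line, bars ± SE). All points lie below 0, and those of ZT15 lie lowest, with Alas2 the least far down.

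The second comparison asked whether the members follow the time of day in both genotypes. In WT the highest library of each member was ZT15, and it exceeded the lowest, ZT3, 10.1-fold for Hba-a1, 9.51-fold for Hba-a2, 8.02-fold for Hbb-bs, 9.46-fold for Hbb-bt and 4.33-fold for Alas2. In cKO the spread from lowest to highest library was 1.72-fold for Hba-a1, 1.84-fold for Hba-a2, 1.48-fold for Hbb-bs, 1.62-fold for Hbb-bt and 1.49-fold for Alas2. The 4 globins were highest at ZT15 in cKO as well, whereas Alas2 was highest at ZT21. Being highest at ZT15 in both genotypes was found in 5.93% of all genes tested. A highest WT library that stood apart from the other 3 by Dixon's ratio, as ZT15 did for all 5 members, was found in 9.37% of genes, and in 0.228% it was ZT15.

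In the edgeR test of the 3 time coefficients 0 of the 5 members passed after adjustment, as did no other gene (0.0%). The fitted log2 difference between the highest and the lowest time was 2.22 for Hba-a1, 2.23 for Hba-a2, 1.99 for Hbb-bs, 2.17 for Hbb-bt and 1.39 for Alas2. Without the WT ZT15 library these differences were 0.95 for Hba-a1, 0.64 for Hbb-bs, 0.82 for Hbb-bt and 0.48 for Alas2, with Hba-a2 above the other members. Without the cKO ZT15 library they were 3.14, 3.11, 2.91, 3.10 and 2.10, in the order of all 5. At an unadjusted p under 0.05 stood 4 of the 5, the exception being Alas2 (unadjusted p = 0.0600, edgeR quasi-likelihood test), against 26.0% of all genes. This count fell without the WT ZT3, WT ZT9 or WT ZT15 library and rose without the cKO ZT15 or cKO ZT21 library. In each of these fits that time rests on 1 library. The count was 3 in limma-voom, against 4016 of 15373 genes tested, and 5 in DESeq2, against 3619 of 15373. It was 5 without the filter on low counts, against 4552 of 22634. Without both ZT3 libraries it was 3, against 409 of 15433. It was 5 without both ZT9 libraries, against 5551 of 15423, and 5 without both ZT21 libraries, against 4188 of 15440. Without both ZT15 libraries it was 1, against 3130 of 15502 genes tested. Without the WT ZT3 library the fitted difference was 1.61 for Hba-a1 and 1.06 for Alas2. DESeq2 called 0 of the 5 for time, with adjusted p from 0.0857 for Alas2 to 0.196 for Hbb-bs, and called 13.5% of the genes with an adjusted p. With 1 pool per genotype and time, a difference between times and a difference between pools of mice cannot be told apart.

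The third comparison asked whether the change from light (ZT3, ZT9) to dark (ZT15, ZT21) differs between the genotypes. The dark minus light difference was smaller in cKO than in WT by 1.38 on the log2 scale for Hba-a1 (interaction -1.38, SE 1.02) and for Hbb-bs (-1.38, SE 0.98). The interaction was -1.35 (SE 1.02) for Hba-a2, -1.50 (SE 1.01) for Hbb-bt and -0.86 (SE 0.70) for Alas2. In edgeR 0 of 5 passed, with an adjusted p of 0.957 for each, and 0.0% of all genes did. At an unadjusted p under 0.05 stood 0 of 5, against 5.29% of all genes, and the smallest unadjusted p was 0.180 for Hbb-bt (edgeR quasi-likelihood test). Leaving out the WT ZT21 library leaves 1 WT dark library. The interaction was then -2.18 for Hba-a1, -2.14 for Hba-a2, -2.18 for Hbb-bs, -2.30 for Hbb-bt and -1.50 for Alas2. Without both ZT21 libraries it was -2.05 for Hba-a1 and -1.61 for Alas2, so its size moves with the library left out. Without the WT ZT15 library the sign turned for all 5, to 0.36 for Hba-a1 and 0.23 for Alas2, so that the direction of this contrast rests on that library.

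The proportions among the members varied far less than their levels. Alpha transcripts made up 66.8, 72.0, 70.5 and 71.7% of the globin counts in the WT libraries, and 65.6, 68.9, 69.4 and 67.1% in cKO. ZT3 was the lowest in each genotype, and the ranges of the genotypes overlapped. The share would depend on how reads common to both copies were treated. Per kilobase of transcript, the alpha sum was 1.98 to 2.67 times the beta sum over the 8 libraries. Within the pairs, Hba-a2 took 51.5 to 53.4% of the alpha counts and Hbb-bt 14.2 to 17.2% of the beta counts. Over the same libraries the summed globin share of a library went from 0.0626% in cKO ZT3 to 1.10% in WT ZT15 (exact 95% interval 1.09 to 1.10%, counting error only).

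Alas2 varied less over the libraries than the globins. Per 1000 globin counts there were 10.7, 7.62, 5.01 and 8.94 counts of Alas2 in WT libraries, and 13.2, 12.6, 10.1 and 13.9 in cKO. The ratio was higher in cKO at 4 of 4 times, it was lowest at ZT15 in each genotype, and the groups overlapped because WT ZT3 exceeded cKO ZT15. A straight line through the 8 libraries put Alas2 at 7.10 CPM where globin was 0, with 4.32 CPM more for each 1000 CPM of summed globins. Without WT ZT15 the line gave 6.43 CPM and 4.89 CPM. The line is a description of 8 libraries, and a level of Alas2 without globin was not observed.

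**Figure D3:**
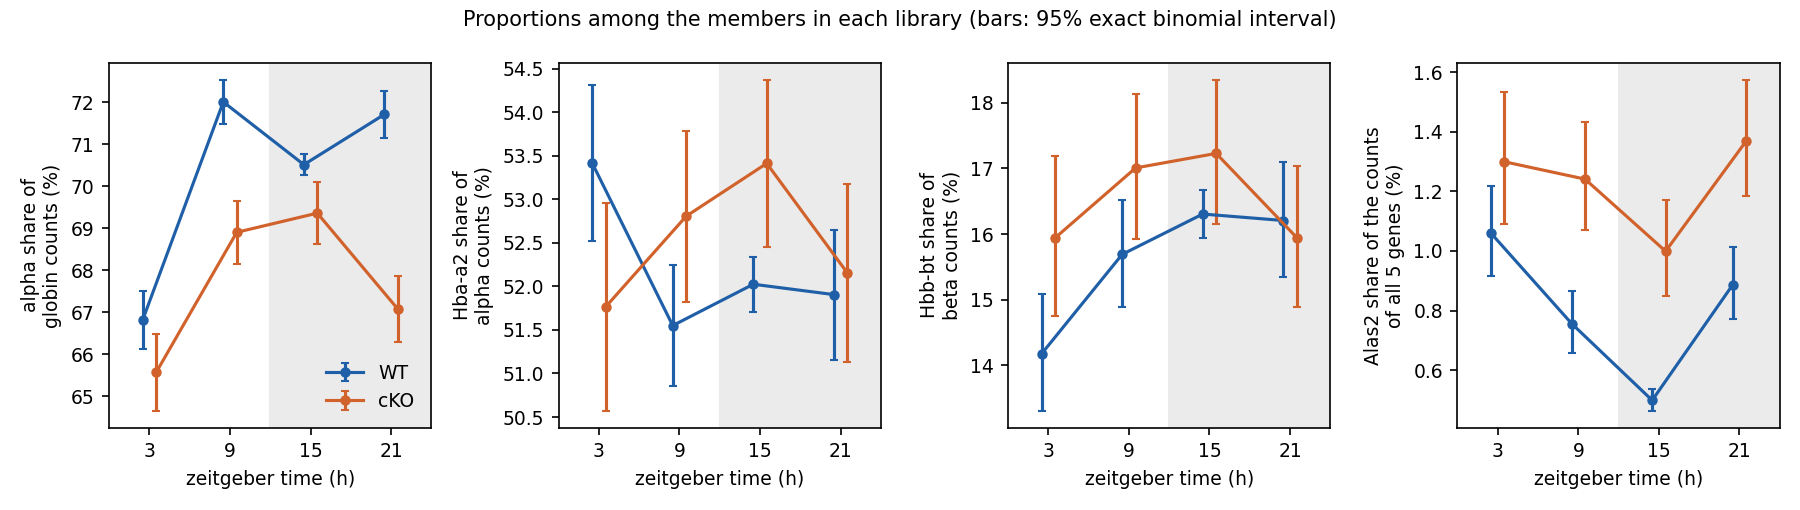
Share of alpha transcripts in the globin counts, of Hba-a2 in the alpha counts, of Hbb-bt in the beta counts and of Alas2 in the counts of all 5 genes (percent) against zeitgeber time in hours, WT in blue and cKO in orange, with exact 95% binomial intervals that cover counting error only. The first 3 shares stay within narrow ranges, such as 51.5 to 53.4% for Hba-a2, and the share of Alas2 is lower in WT than in cKO at each time.

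The embryonic globin genes were near or at 0. Over all 8 libraries Hba-x, the embryonic alpha-like gene, had 2 counts, and Hbb-y, an embryonic beta-like gene, also had 2. Hbb-bh0, Hbb-bh1, Hbb-bh2 and Hbb-bh3 had 0 counts, which allows up to 3 counts or 0.0252 CPM over the 8 libraries. Of the globins of other tissues 3 were tested: cytoglobin (Cygb) averaged 70.8 ± 20.2 CPM over WT libraries against 91.0 ± 15.4 CPM over cKO libraries (log2 fold change 0.38, unadjusted p = 0.0190 in edgeR), and myoglobin (Mb), the oxygen store of muscle, averaged 36.6 ± 11.2 and 53.8 ± 6.59 CPM (log2 fold change 0.60, unadjusted p = 0.0138 in edgeR). Neuroglobin (Ngb) had 0.787 ± 0.166 and 0.782 ± 0.123 CPM, with a log2 fold change of -0.00. None of these 3 passed after adjustment in edgeR.

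Other genes of late red cells had a median difference near that of all genes. Of 49 genes of the red cell membrane, of globin handling and of late red cells in the table, 40 were tested, with a median log2 fold change of 0.06 against -0.03 for all genes, and 0 passed in edgeR. Unadjusted, 8 were higher and 3 lower in cKO at p under 0.05, against 10.5% of all genes higher and 11.0% lower. DESeq2 called 4.66% of the genes with an adjusted p higher in cKO. These shares of all genes also stand beside the counts of the other lists given next. In the late red cell list DESeq2 called 3, all higher in cKO, the antioxidant genes Prdx2 (log2 fold change 0.49) and Gpx1 (0.50), and Fam46c (0.38). Most of these genes are also expressed outside red cells, and the genes more restricted to red cells were rare here. Slc4a1, the anion exchanger band 3 of the red cell membrane, had 3, 10, 31 and 13 counts in WT libraries and 4, 7, 10 and 11 counts in cKO libraries (log2 fold change -0.85, SE 0.40, unadjusted p = 0.0691 in edgeR). Epb42, which encodes protein 4.2 of the membrane skeleton, had 0.793, 4.18, 5.27 and 3.55 CPM in WT libraries against 1.34, 1.49, 2.80 and 1.47 CPM in cKO libraries (log2 fold change -0.84, SE 0.35, unadjusted p = 0.0476 in edgeR). Both had their highest library in WT ZT15, like the members, and both were lower in cKO at 3 of 4 times.

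Genes of haem synthesis and of haem breakdown had medians near that of all genes as well. All 16 haem synthesis genes in the table were tested, with a median log2 fold change of 0.06, 0 past the adjusted threshold in edgeR, 2 higher and 1 lower before adjustment (p under 0.05), and 1 called higher by DESeq2. Alas1 averaged 25.4 ± 2.69 CPM over WT libraries and 26.2 ± 2.76 CPM over cKO libraries (log2 fold change 0.04, unadjusted p = 0.670 in edgeR). Alad, the enzyme of the step after 5-aminolevulinate synthase, had a log2 fold change of 0.10, within its SE, and Uros, a later enzyme of the pathway, had a log2 fold change of -0.33 (unadjusted p = 0.0349 in edgeR). Of 18 tested genes of haem breakdown, scavenging and iron, 4 were higher and 0 lower before adjustment (p under 0.05), with a median log2 fold change of 0.10, and DESeq2 called 2 higher. These were the ferritin chains Fth1 (log2 fold change 0.61) and Ftl1 (0.50), which store iron. Hmox1, which encodes the inducible haem oxygenase, had a log2 fold change of -0.00.

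The erythroid transcription factors Gata1, Klf1 and Tal1 had few counts. Gata1 had 0 or 1 count in each library, and Klf1, which encodes the factor that binds CACCC sites of the beta globin promoter, had 12 counts in WT ZT15 and 2 to 6 elsewhere. Tal1 had 1 to 7 counts. Of the 10 tested genes of this list, most of which are also expressed outside red cells, 1 was higher and 1 lower before adjustment (p under 0.05), the median was -0.06, and 0 were called by edgeR or DESeq2. The lower gene was Zbtb7a (log2 fold change -0.34, lower at 4 of 4 times).

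Markers of other blood cells did not stand apart in the WT ZT15 library as the members did. Over the 29 tested genes of neutrophils, lymphocytes, leukocytes in general and platelets, the level in WT ZT15 was at most 1.78 times the median of the other 7 libraries, with a median of 1.06, against 4.33 for Alas2 and 8.93 to 10.1 for the globins. A ratio of at least 4 was found in 0.13% of all genes tested. Between the genotypes 3 of the 29 were lower in cKO and 4 higher before adjustment (p under 0.05), and 0 passed. The neutrophil markers S100a8, S100a9 and Ngp had at most 20 counts in a library, and the summed neutrophil list had 19.4 to 26.4 CPM in WT and 20.8 to 22.8 CPM in cKO. The summed lymphocyte list had 20.3 to 41.0 CPM in WT and 29.7 to 37.6 CPM in cKO, and the platelet list 16.5 to 22.8 and 16.0 to 21.6 CPM. The leukocyte list had 45.0 to 119.5 CPM in WT and 63.4 to 104 CPM in cKO, with its maximum in WT ZT3. Within it 3 genes were higher in cKO before adjustment, Laptm5 (log2 fold change 0.86), Plac8 (0.68) and Cd53 (0.65), and 1 was lower. The lower gene, Ptprc, the surface phosphatase CD45 of nucleated blood cells, averaged 4.51 ± 0.96 CPM over WT libraries against 2.19 ± 0.49 CPM over cKO libraries (log2 fold change -1.04, SE 0.21, unadjusted p = 0.0017 in edgeR, adjusted p = 0.157), lower at 4 of 4 times.

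Endothelial genes, which mark the vessel wall, had a median log2 fold change of 0.22 over 18 tested genes, with 3 higher and 1 lower in cKO before adjustment (p under 0.05) and 0 past adjustment in edgeR. Their sum was 275 to 366 CPM in WT and 269 to 351 CPM in cKO, and it was the lowest of the WT libraries in WT ZT15. Taken relative to the mean log2 level of this list in the same library, the members differed by -1.83 for Hba-a1, -1.81 for Hba-a2, -1.66 for Hbb-bs, -1.55 for Hbb-bt and -1.07 for Alas2. The 8 tested genes of bone marrow and dividing cells had a median of 0.01, with 2 lower, the mitotic genes Top2a (log2 fold change -0.70) and Cenpf (-0.84). Of 7 liver plasma protein genes 2 were tested, Apoa2 and Ttr. Ttr encodes transthyretin, which the pigment epithelium of the eye also makes, and it had a log2 fold change of 0.63. Alb had 0 or 1 count in each library.

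**Figure D4:**
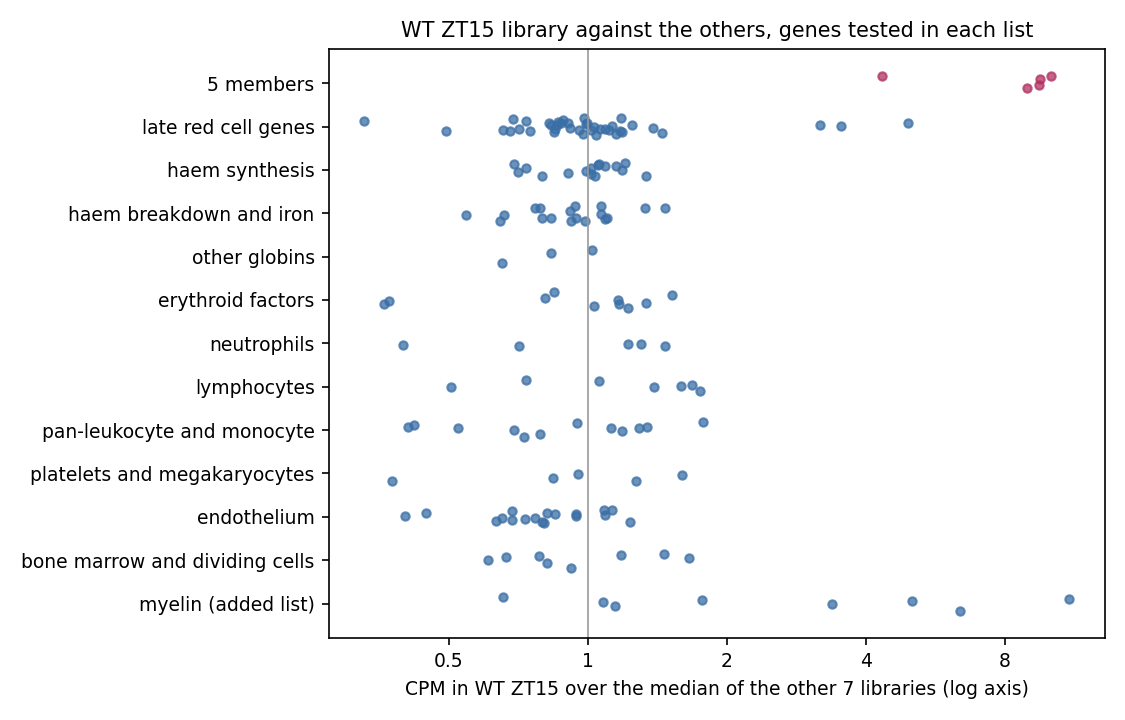
Level in the WT ZT15 library over the median of the other 7 libraries (log axis) for each tested gene of each list, with the 5 members in red and other lists in blue. The members lie at 4.33 to 10.1, and the blood cell lists end at 1.78. A ratio of at least 3 was reached by 3 late red cell genes, Isg20, Epb42 and Slc4a1, and by 0.319% of all genes tested. The added myelin list runs from 0.655 to 11.0.

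The genes whose profile over the 8 libraries was most like that of the globins, by Pearson correlation of log2 CPM with the mean of the 4 globins, were led by Isg20. Its r was 0.98, and 0.95 without WT ZT15, while Alas2 had 0.99 and 0.94. Isg20, an interferon-induced exonuclease gene that the late red cell list also holds, had 1.40, 3.24, 7.90 and 2.77 CPM in WT libraries against 1.15, 1.60, 1.77 and 1.47 CPM in cKO libraries. At 4 of 4 times the cKO level was the lower, with a log2 fold change of -1.16 (SE 0.32, adjusted p = 0.158 in edgeR). The next were Fzd9 (r 0.96), Tmem165 (0.96), Slc41a1 (0.95), Adamtsl1 (0.94), Prrg4 (0.93), Mfsd4b5 (0.92), Nphs1 (0.91), Inmt (0.91) and Zbtb16 (0.91). Without WT ZT15 the r of Inmt was 0.41, and that of the other 8 ran from 0.77 for Zbtb16 to 0.98 for Prrg4. Likeness in r does not mean likeness in size: Tmem165 had 32.3 CPM in WT ZT15 against 27.1 to 29.2 CPM elsewhere, and Mfsd4b5 had 2.33 against 0.318 to 1.50 CPM. Among genes with a mean of at least 10 CPM, Tmem165 and Slc41a1 were followed by Bcl10, Ube2g1, Sdpr, Samd7, Plekhg5, Sgsm3 and Ip6k2. Without WT ZT15 the r of Bcl10 was 0.40, that of Sdpr 0.60, that of Plekhg5 0.60 and that of Samd7 0.65.

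The WT ZT15 library also stood apart in some genes of myelin, a list added after the values were seen. Of 11 myelin genes 8 passed the filter on low counts, and 5 of these were highest in that library, where 9.18% of all genes tested had their highest level. Mobp, a myelin protein gene of oligodendrocytes, had 8.12 CPM there and 0.366 to 1.03 CPM elsewhere. Mal, which epithelia also express, had 233 CPM there and 124 to 323 CPM elsewhere. Cnp had 9.63 CPM there and 7.73 to 18.1 CPM elsewhere, and Ermn 24.4 CPM there and 19.8 to 27.6 CPM elsewhere. The sum over the 11 genes was 358 CPM there and up to 390 CPM in a cKO library. The part of tissue composition in the member values of this library was not tested.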

How the data were processed

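Whole-eye RNA sequencing of 8 pooled mouse libraries was analysed from counts per gene symbol as the authors deposited them, raw counts with no normalization. Aligner, counting program, build, annotation and strand are each not given in the sources used here. Of 32544 symbols, 27 that a spreadsheet had turned into dates were left out (0.123 to 0.145% of the counts). Groups were taken from the labels. The totals of 11748995 to 20309611 counts per library set the precision, and binomial intervals cover counting error only.

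edgeR 4.0.16 in R 4.3.3 used TMM, filterByExpr by genotype (15373 genes tested, all 5 members among them), the quasi-likelihood F test and Benjamini-Hochberg adjustment at 0.05. Genotype and time came from an additive fit with time as a factor (3 residual degrees of freedom), and the interaction with light phase from a second fit (4 residual degrees of freedom). WT and cKO libraries share only their time of collection. With 1 pool per genotype and time, the residual of the additive fit holds differences between pools and any change of the genotype difference with time. In the second fit it also holds differences between the times of a phase. The p-values thus do not measure the spread between pools alone. DESeq2 1.42.0 and limma-voom (limma 3.58.1) were alternatives, and adjusted p-values that DESeq2 gave as NA stayed NA. Single members were also compared with an exact permutation test (two-sided, 70 arrangements). Sequences came from GENCODE M21 transcripts, where the coding part was taken as the longest reading frame, and from RefSeq promoters, in which all 5 members matched by symbol.

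Named genes are the members, the first 3 of each of 12 lists, up to 4 list genes by p, and the 10 genes most like the globins in r, also at a mean of at least 10 CPM. Members and lists were chosen with earlier results of these data known. Genes named beyond this rule, such as Isg20 in its list and the myelin genes, were chosen after their values were seen. Some genes that the rule names are not reported here.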

Additional observations from a re-analysis of the deposited data

Results flagged for a closer look

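In the WT group of 4 libraries, the ZT15 library lay far from the others for each member. Its gap to the nearest WT library, as a part of the whole WT range in CPM, was 0.865 for Hba-a1, 0.875 for Hba-a2, 0.908 for Hbb-bs, 0.899 for Hbb-bt and 0.876 for Alas2, above Dixon's 95% critical value for 4 libraries. Chance alone flags about 1 in 20 groups, the 5 genes share their libraries and the copies share reads, so these are not 5 separate observations. Of all genes tested, 9.37% had a WT library apart on the high side by this measure, and in 0.228% it was the ZT15 library. In the cKO group 0 of the 5 members were flagged. Each library is 1 pool of 3 mice with no repeat, so a single mouse and a time of day cannot be told apart.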

How the results depend on the processing

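The count of members past the adjusted threshold was 0 for genotype, time and the interaction in edgeR, and it kept this value under each alternative run with 1 exception, DESeq2 for the genotype with 2 members. The log2 fold changes of the genotype stayed negative under all 20 or 21 alternatives per gene, from -2.19 to -1.07 for Hba-a1, -2.16 to -1.07 for Hba-a2, -2.00 to -0.88 for Hbb-bs, -1.95 to -0.78 for Hbb-bt and -1.14 to -0.46 for Alas2. The lowest came without time as a replicate block and the highest without the WT ZT15 library. With total counts only, the median of all genes moved from -0.03 to -0.20 and Hba-a1 to -1.79. By that scaling, and by totals without globins and mitochondrial transcripts, both chosen after seeing the data, 4 members in place of 1 had no overlap between groups (all but Hbb-bt). The share of all genes without overlap, 3.16%, is known for TMM only, so these counts of 4 have no share to be read against. The difference between times ran from 0.75 to 3.14 for Hba-a1 and from 0.48 to 2.10 for Alas2. The interaction turned positive without WT replicate 3, the ZT15 library: 0.36 for Hba-a1, 0.40 for Hba-a2, 0.44 for Hbb-bs, 0.33 for Hbb-bt and 0.23 for Alas2. Over all libraries left out in turn its lowest values were -2.18, -2.14, -2.18, -2.30 and -1.50. Without both ZT15 libraries it was 0.24, 0.25, 0.39, 0.22 and 0.34 in the same order. Summing the copies of a pair gave -1.59 for alpha and -1.41 for beta. Over all genes, edgeR called 7 of 22634 for the genotype without the filter on low counts, and DESeq2, with the filter, called 546. Depth limits the values of Alas2 (136 counts at the lowest) more than those of the globins.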
